A study of Drosophila melanogaster with 24 samples.

Results

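The 8 genes described here are the core of the fly JNK cascade with its transcription factors, and a pair of factors that neuronal activity switches on. They are the ligand egr, the kinases hep and bsk, the phosphatase puc, the AP-1 subunits Jra and kay, and the activity-regulated factors Hr38 and sr. They were chosen by name and function, and all 8 are among the 16995 genes of the deposited count table. The study asked how gene expression changes in the fly brain within hours of traumatic brain injury (TBI) in each sex. Single brains of adult mated w1118 flies, a white-eyed laboratory strain with no transgene, were profiled with QuantSeq 3′ libraries, in which each read comes from close to the 3′ end of a polyadenylated transcript. Injured flies received a single strike of a device that flings a vial of flies against a pad, so the trauma was to the whole body, and brains were taken 1, 2 or 4 hr later. Control flies were not struck. There were 8 groups of 3 libraries, controls and the 3 times after injury for each sex label, and 24 libraries in all.

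The JNK cascade relays stress and injury signals from the cell surface to the nucleus. In the fly, the tumour necrosis factor family ligand Eiger (egr, not to be confused with the mammalian EGR factors) acts through membrane receptors on a chain of kinases that ends in hemipterous (hep), the JNK kinase, and basket (bsk), the JNK itself. Basket phosphorylates the fly Jun protein, Jra, which pairs with the fly Fos protein, kayak (kay), to form AP-1. The phosphatase puckered (puc) inactivates basket and is itself transcribed in response to JNK signalling, which makes it a widely used readout of the cascade and a negative feedback. Hr38, a nuclear receptor of the NR4A family, and stripe (sr), a zinc finger factor of the EGR family, are the best known genes of the fly brain whose transcription follows neuronal firing.

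Depth limited what could be seen. Total counts per library ran from 46943 to 1769669, and 4 libraries held fewer than 100000, namely female-labelled control replicate 3, female-labelled 1 hr replicate 2, male-labelled control replicate 3 and male-labelled 4 hr replicate 2. Levels below are CPM, counts scaled to the same library total by the TMM method. A tag count depends on where the 3′ end lies, so levels are compared between libraries and never between genes. Sex is given as a label because the libraries go against it. The summed level of roX1 and roX2, noncoding RNAs of the male dosage compensation complex, lay between 804 and 1196 CPM in the 12 male-labelled libraries and between 841 and 1422 CPM in 10 of the 12 female-labelled ones, and was 8.27 and 83.1 CPM in female-labelled 2 hr replicate 2 and 4 hr replicate 2. The same 2 libraries had the lowest summed levels of 7 neuronal markers, 381 and 1094 CPM against 1936 to 4236 CPM elsewhere, and elav, which marks neurons, was detected in all 24 libraries. Results of the 8 genes that rest on these 2 libraries are given with and without them. The labels do not say what the replicate numbers stand for.

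No gene of the 8 passed the threshold, an adjusted p under 0.05 with a log2 fold change beyond 1 either way (edgeR quasi-likelihood test, Benjamini-Hochberg adjustment over all genes tested), in any of 15 comparisons. Nor did any of the other genes tested in these comparisons, so the share called by edgeR was 0.0% throughout. DESeq2 called 27 of 5918 genes in female-labelled flies at 2 hr and 4 of 5462 for the sex-label difference in the 2 hr change, limma-voom called 1 of 4474 between 1 and 2 hr in male-labelled flies, and none of these was among the 8. After the filter on low counts, 6 of the 8 could be tested in female-labelled libraries (hep, bsk, puc, Jra, kay and Hr38), 3 in male-labelled libraries (puc, kay and Hr38) and 5 over all 24 (those 6 without bsk). egr and sr passed the filter in none of the fits. A gene that passes only through a group where it is high is bound to differ, so the counts that follow are read beside the share of all tested genes that did the same.

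**Figure D1:**
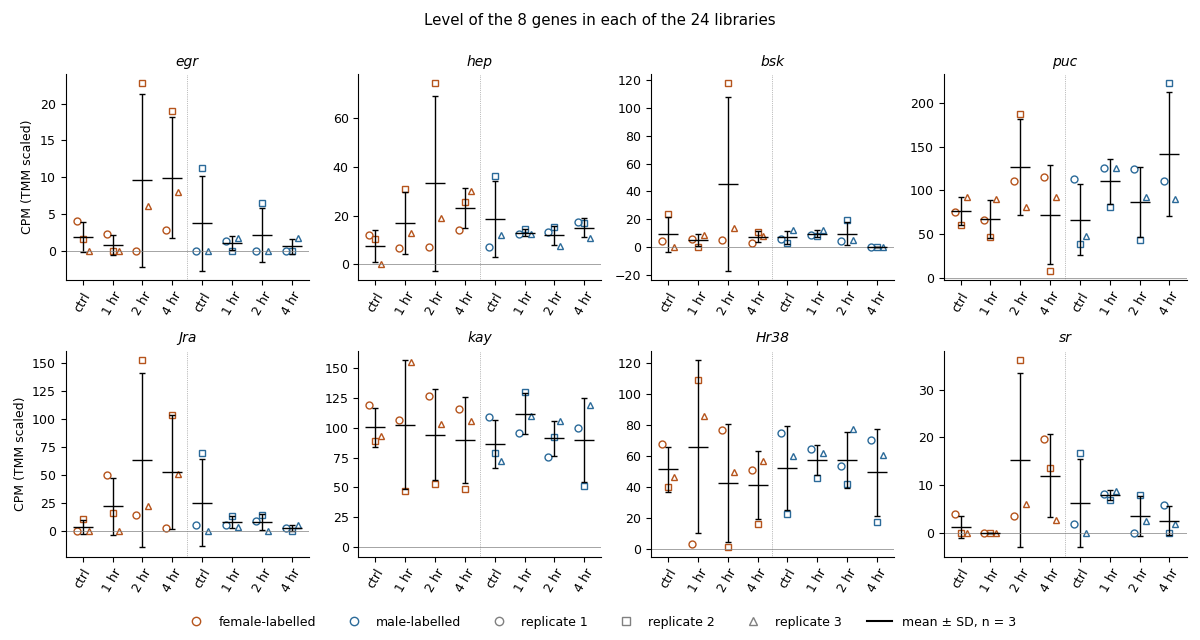
Level of each of the 8 genes in CPM (vertical axes, different scales) in the 4 groups of each sex label (horizontal axes). Each symbol is 1 library, its shape gives the replicate number, and black bars are the mean ± SD of 3 libraries, which reach below 0 where 1 library holds most of the signal. In female-labelled 2 hr replicate 2, a square, egr, hep, bsk, Jra and sr each had their highest level of the 24 libraries.

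At an unadjusted p under 0.05 with the same fold limit, Jra was the single gene of the 8 to stand out, in 3 comparisons. It did so among 6 tested in female-labelled flies at 2 hr, where 7.13% of all genes tested did. It also did so among 5 tested for a difference between sex labels in the 2 hr and in the 4 hr change, where 5.44% and 6.35% of genes did. None of the 6 did in female-labelled flies at 1 hr (1.66% of genes) or 4 hr (5.09%), or between 1 and 2 hr (2.23%) or 2 and 4 hr (1.55%). None of the 3 did in male-labelled flies at 1 hr (0.916%), 2 hr (1.77%) or 4 hr (1.32%), or between 1 and 2 hr (0.872%) or 2 and 4 hr (0.894%). None of the 5 did for the sex-label difference at 1 hr (1.72%), between the controls of the labels (1.96%) or for injury at any time against control (3.13%). A count of 1 among 5 or 6 genes cannot be set apart from these shares. Groups did not overlap with control for Jra in female-labelled flies at 2 hr (14.7% of genes) and for hep at 4 hr (11.8%), and for none of the tested genes at 1 hr (6.89%) or in male-labelled flies at 1 hr (9.19%), 2 hr (4.22%) or 4 hr (7.51%).

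egr, the ligand, was close to the limit of detection, with 89 reads over 24 libraries and at least 1 read in 13 of them. In female-labelled libraries (replicates 1, 2 and 3 in this order, here and below) it lay at 3.97, 1.63 and 0 CPM in controls, at 2.26, 0 and 0 CPM at 1 hr, at 0, 22.7 and 6.04 CPM at 2 hr and at 2.82, 18.9 and 7.96 CPM at 4 hr. In male-labelled libraries it lay at 0, 11.2 and 0 CPM in controls, at 1.37, 0 and 1.76 CPM at 1 hr, at 0, 6.41 and 0 CPM at 2 hr and at 0, 0 and 1.78 CPM at 4 hr. The 2 highest libraries of the 24 were the 2 that stood apart in their roX and neuronal RNA, and they held 29.7% (2 hr) and 37.8% (4 hr) of the egr reads of the female label. Pooled over libraries, 3 reads in female-labelled controls compared with 30 at 2 hr and 38 at 4 hr, ratios of 5.39 (95% counting interval 1.68 to 27.6) and 6.60 (2.10 to 33.4) after scaling. Without the 2 libraries that stood apart, 8 and 10 reads remained, and the ratios were 2.17 (0.521 to 12.7) and 3.47 (0.893 to 19.6), with both intervals reaching below 1. These intervals cover counting error alone, not the spread between brains, and each injured group had a library within the range of the controls. Without the filter on low counts, the edgeR test gave adjusted p = 0.868 at both times.

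hep, the JNK kinase, had reads in 23 of 24 libraries, with no change that passed the test. It lay at 11.9, 10.6 and 0 CPM in female-labelled controls, at 6.77, 31.1 and 12.9 CPM at 1 hr, at 6.94, 74.4 and 18.9 CPM at 2 hr and at 14.1, 25.7 and 30.1 CPM at 4 hr. All 3 libraries at 4 hr lay above all 3 controls, the only comparison with control in which hep did not overlap. Groups did not overlap for 11.8% of the genes tested there, so 1 gene of 6 is near the background. The 0 in control replicate 3 comes from a shallow library in which 3 counts equal 46.4 CPM, above every 4 hr value, so its level could not be placed below them. The log2 fold change was 1.78 ± 1.09 (SE, n = 3 against 3, edgeR adjusted p = 0.845) at 2 hr and 1.32 ± 1.08 (adjusted p = 0.929) at 4 hr. The 2 hr value fell to 0.51 without replicate 2 of that group, whereas the 4 hr value was 1.27 without the 2 libraries that stood apart. In male-labelled libraries hep lay at 7.28, 36.4 and 11.97 CPM in controls and between 7.70 and 17.5 CPM in all 9 injured libraries. Every injured male-labelled library was thus inside the range of its controls.

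bsk, the fly JNK, was likewise sparse, with 254 reads in 19 of 24 libraries. In female-labelled libraries it lay at 3.97, 23.6 and 0 CPM in controls, at 6.01, 0 and 8.59 CPM at 1 hr, at 5.21, 118 and 13.6 CPM at 2 hr and at 2.82, 10.8 and 7.96 CPM at 4 hr. A single library, 2 hr replicate 2, held 56.7% of the bsk reads of the female label, and the other 11 libraries lay at or below 23.6 CPM. The log2 fold change was 1.84 ± 1.24 (SE, edgeR adjusted p = 0.866) at 2 hr against control, and the values against the neighbouring times, 2.84 ± 1.36 over 1 hr (adjusted p = 0.999) and −2.52 ± 1.24 from 2 to 4 hr (adjusted p = 1.0), rest on the same library. Without that library bsk no longer passed the filter on low counts. At 4 hr the log2 fold change against control was −0.68 ± 1.23 (adjusted p = 0.929).

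In male-labelled libraries bsk lay at 5.46, 2.80 and 11.97 CPM in controls, at 8.20, 7.82 and 12.3 CPM at 1 hr, at 4.43, 19.2 and 5.13 CPM at 2 hr and at 0 in all 3 libraries at 4 hr. The 4 hr libraries, which included 1 of the 4 shallow ones, thus held no bsk read, which allows a level of up to 3.12 CPM over the pooled libraries of the group (3 counts). Against the 27 reads at 2 hr, of which 24 came from replicate 2, this was at least 4.65-fold lower, taking the 2 hr reads as counted. The other libraries at 2 hr held 1 and 2 reads. Against the 5 reads in controls the bound was 1.62-fold, taking those as counted. The counting error of so few reads is not in this bound, so a lower level than in controls is not shown. In the single libraries at 4 hr, 3 counts equal 8.77, 51.2 and 5.34 CPM. bsk was below the filter in male-labelled libraries, and without the filter edgeR gave adjusted p = 0.952 at 4 hr against control.

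puc, the phosphatase that inactivates Basket and the usual transcriptional readout of the cascade, had reads in every library, 1271 in all. In female-labelled libraries it lay at 75.5, 61.0 and 92.8 CPM in controls, at 66.9, 46.7 and 90.1 CPM at 1 hr, at 111, 187 and 80.8 CPM at 2 hr and at 116, 8.78 and 92.9 CPM at 4 hr. The lowest and one of the 2 highest values of all 24 libraries came from the 2 that stood apart, 8.78 CPM at 4 hr and 187 CPM at 2 hr. By library size alone the value at 2 hr was 118.5 CPM and no longer among the 2 highest. The log2 fold changes were −0.11 ± 0.782 (SE) at 1 hr, 0.71 ± 0.760 at 2 hr and −0.08 ± 0.763 at 4 hr, with edgeR adjusted p = 1.0, 0.880 and 0.989. Without the 2 libraries they were −0.04, 0.39 and 0.51, so that the 4 hr value changed sign.

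In male-labelled libraries puc lay at 113, 39.2 and 47.9 CPM in controls, at 126, 81.1 and 125 CPM at 1 hr, at 124, 44.1 and 92.4 CPM at 2 hr and at 111, 222 and 90.7 CPM at 4 hr. The 222 CPM rests on 13 reads and the 47.9 CPM on 4 reads, both in shallow libraries (46943 and 72792 counts). Control replicate 1 lay inside the range of each injured group, and the other 2 controls lay below every injured library, apart from 2 hr replicate 2, which lay between them. The group means were 66.6 ± 40.2 CPM (SD, n = 3) in controls, 111 ± 25.6 at 1 hr, 86.8 ± 40.3 at 2 hr and 141 ± 70.5 at 4 hr. The log2 fold changes of 0.60 ± 0.464 (SE) at 1 hr, 0.19 ± 0.480 at 2 hr and 0.81 ± 0.497 at 4 hr had edgeR adjusted p = 0.999, 1.0 and 0.999. With 1 library left out they lay between 0.28 and 1.33 at 1 hr, between −0.14 and 0.91 at 2 hr and between 0.44 and 1.54 at 4 hr, each lowest without control replicate 2 and highest without control replicate 1, and no adjusted p passed. Libraries with the same replicate number had deviations correlated at over 0.1 for control with 1 hr and control with 2 hr. Only replicate 2, however, was closest to the library of its own number. puc was higher after injury in 3 of 3 same-numbered pairs at both times, and the share of all genes with 3 of 3 was not computed. With the replicate number as a block the values were 0.67 at 1 hr and 0.22 at 2 hr (edgeR adjusted p = 0.999 for both). Over both labels and all times the log2 fold change of puc after injury was 0.43 ± 0.395 (unadjusted p = 0.293, edgeR adjusted p = 1.0).

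Jra, the fly Jun, had reads in 18 of 24 libraries, and a few of them held most of its signal. It lay at 0, 10.6 and 0 CPM in female-labelled controls, at 50.4, 15.6 and 0 CPM at 1 hr, at 13.9, 153 and 22.7 CPM at 2 hr and at 2.82, 104 and 51.3 CPM at 4 hr. All 3 libraries at 2 hr lay above all 3 controls, as did 2 of 3 at both 1 hr and 4 hr. The 0 in control replicate 3 comes from a shallow library in which 3 counts equal 46.4 CPM, above the 13.9 and 22.7 CPM at 2 hr. Groups did not overlap for 14.7% of genes tested at 2 hr, and for 9.61% with the injured group above. The means were 3.53 ± 6.11 CPM (SD, n = 3) in controls, 21.98 ± 25.8 at 1 hr, 63.2 ± 77.9 at 2 hr and 52.7 ± 50.6 at 4 hr, so the SD exceeded the mean in 3 of the 4 groups.

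The log2 fold change of Jra was 2.05 ± 1.49 (SE) at 1 hr, 3.34 ± 1.49 at 2 hr and 3.15 ± 1.49 at 4 hr. The unadjusted p values were 0.188, 0.041 and 0.0509, and the edgeR adjusted p values 1.0, 0.653 and 0.929. Without 2 hr replicate 2 and 4 hr replicate 2 the 2 hr and 4 hr values were 1.60 and 2.23 (adjusted p = 0.999 for both). The 1 hr value turned to −0.40 without replicate 1 of that group. The controls weigh as much, since 13 reads in all 3 of them, all from replicate 2, set the base. Pooled over libraries, 68, 186 and 213 reads after injury gave ratios of 4.97 (95% counting interval 2.72 to 9.80) at 1 hr, 7.71 (4.40 to 14.8) at 2 hr and 8.54 (4.89 to 16.3) at 4 hr. Without the 2 libraries that stood apart, 38 and 59 reads remained at 2 and 4 hr, with ratios of 2.38 (1.24 to 4.86) and 4.72 (2.56 to 9.39). DESeq2 gave the lowest adjusted p of any of the 8 genes in any fit, 0.229, for Jra at 2 hr.

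In male-labelled libraries Jra lay at 5.46, 70.0 and 0 CPM in controls, at 5.47, 13.7 and 3.53 CPM at 1 hr, at 8.86, 14.4 and 0 CPM at 2 hr and at 2.93, 0 and 5.34 CPM at 4 hr. Control replicate 2 was above every injured library, and the other 2 controls were inside their range. The control reads (28 in all) came almost wholly from that library, which held 25. Pooled ratios to control were 0.305, 0.380 and 0.147 at the 3 times, and Jra was below the filter on low counts in this label. Without the filter edgeR gave adjusted p = 1.0, 0.941 and 0.952.

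**Figure D2:**
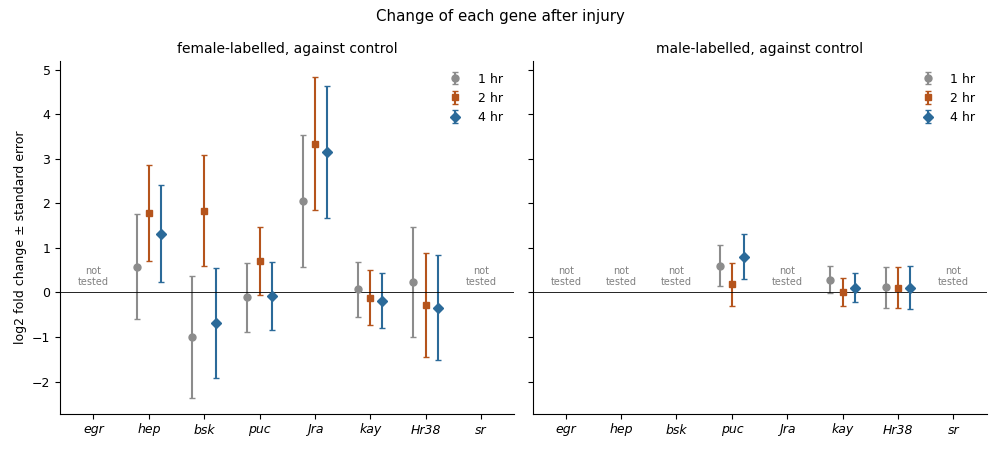
Log2 fold change (vertical axis) of each gene that passed the filter on low counts against the control group of its sex label at 1, 2 and 4 hr, with standard errors from the edgeR fit. Jra has the largest values, 2.05, 3.34 and 3.15 in female-labelled libraries, with standard errors of 1.49, and kay and Hr38 lie near 0 in both labels.

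The tests of a difference between sex labels in the change gave Jra log2 values of 3.86 ± 1.93 (SE, female-labelled change minus male-labelled change) at 1 hr, 5.06 ± 1.94 at 2 hr and 5.92 ± 2.11 at 4 hr. The unadjusted p values were 0.0568, 0.0157 and 0.0101 and the edgeR adjusted p values 1.0, 0.829 and 0.733, so none passed. The controls enter all 3 values, and they differed themselves, with means of 3.53 CPM in the female label and 25.2 CPM in the male label (log2 difference −2.18 ± 1.43, unadjusted p = 0.142, adjusted p = 1.0). Without male-labelled control replicate 2 the 3 values were 1.19, 2.35 and 3.22, and the difference between controls turned to 0.48. Without female-labelled 2 hr replicate 2 and 4 hr replicate 2 the 2 hr and 4 hr values were 3.24 and 4.97. For hep the difference at 2 hr was 2.46 ± 1.24 (unadjusted p = 0.0589, adjusted p = 0.850), and 1.11 without those 2 libraries.

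**Figure D3:**
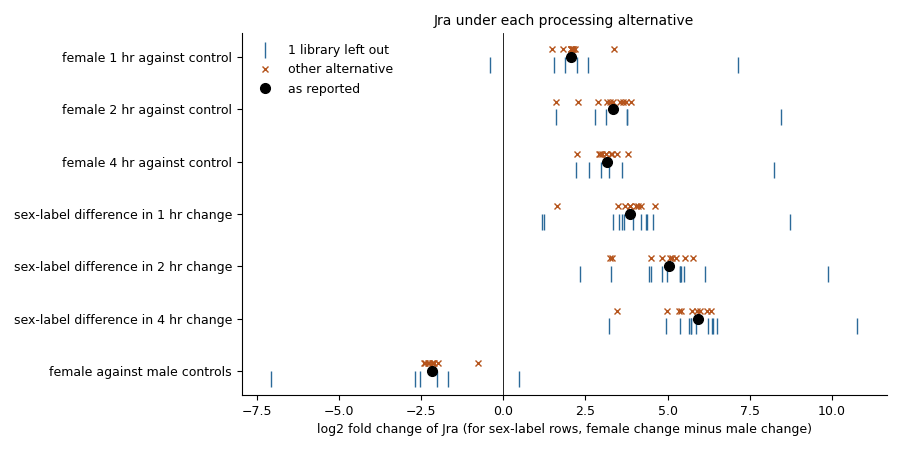
Log2 fold change of Jra (horizontal axis) in 7 comparisons (vertical axis). Black circles are the values reported, vertical ticks the values with 1 library left out, and crosses those under the other processing alternatives. Leaving out 1 library moves the female-labelled 2 hr value between 1.62 and 8.46, while the value stays above 0.

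kay, the fly Fos and the partner of Jra in AP-1, had the most reads of the 8 genes (1453), and its group means lay between 86.5 and 112 CPM. In female-labelled libraries it lay at 119, 88.7 and 92.8 CPM in controls, at 106, 46.7 and 155 CPM at 1 hr, at 127, 52.7 and 103 CPM at 2 hr and at 116, 48.6 and 105 CPM at 4 hr. In male-labelled libraries it lay at 109, 78.4 and 71.8 CPM in controls, at 95.7, 130.0 and 109 CPM at 1 hr, at 75.3, 92.2 and 105 CPM at 2 hr and at 99.4, 51.2 and 119 CPM at 4 hr. Every injured group overlapped with its controls, and the lowest library of each injured female-labelled group was replicate 2. The log2 fold changes lay between −0.18 ± 0.612 (SE, female-labelled, 4 hr) and 0.29 ± 0.306 (male-labelled, 1 hr), and edgeR adjusted p values between 0.958 and 1.0. The female-labelled values were 0.19 at 2 hr and 0.14 at 4 hr without the 2 libraries that stood apart. Over both labels and all times the value was 0.05, and its sign varied with the scaling, as it did in 5 of the 6 comparisons with control when libraries or processing were varied.

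Hr38, the NR4A receptor that follows neuronal firing, had 653 reads and was detected in every library. In female-labelled libraries it lay at 67.5, 39.9 and 46.4 CPM in controls, at 3.01, 109 and 85.9 CPM at 1 hr, at 76.4, 1.03 and 49.8 CPM at 2 hr and at 50.7, 16.2 and 56.6 CPM at 4 hr. One library in each injured group lay below every control, at 3.01, 1.03 and 16.2 CPM, and the others lay inside or above the range of the controls. The log2 fold changes were 0.23 ± 1.23 (SE) at 1 hr, −0.28 ± 1.18 at 2 hr and −0.34 ± 1.18 at 4 hr (edgeR adjusted p = 1.0, 0.969 and 0.961). Without the 2 libraries that stood apart the 2 hr and 4 hr values were 0.30 and 0.09. At 1 hr the pooled reads pointed the other way from the fit, 31 against 69 in controls with a ratio of 0.427, and the library at 3.01 CPM was also the deepest of its group, with 1683383 counts.

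In male-labelled libraries Hr38 lay at 74.6, 22.4 and 59.9 CPM in controls, at 64.2, 45.9 and 61.7 CPM at 1 hr, at 53.1, 41.7 and 77.0 CPM at 2 hr and at 70.2, 17.1 and 60.5 CPM at 4 hr. All groups overlapped, with means between 49.2 and 57.3 CPM, and replicate 2 was the lowest library in each of them. The log2 fold changes of 0.12 ± 0.458 (SE) at 1 hr, 0.11 ± 0.469 at 2 hr and 0.11 ± 0.485 at 4 hr were smaller than their errors (edgeR adjusted p from 0.999 to 1.0), and each had the opposite sign in limma-voom.

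sr, the EGR-family factor, was the other sparse gene, with 115 reads in 16 of 24 libraries. In female-labelled libraries it lay at 3.97, 0 and 0 CPM in controls, at 0 in all 3 libraries at 1 hr, at 3.47, 36.2 and 6.04 CPM at 2 hr and at 19.7, 13.5 and 2.65 CPM at 4 hr. The 3 libraries at 1 hr, of which 1 was shallow, thus held no sr read, which allows up to 1.84 CPM over the pooled libraries of the group (3 counts), and all 3 libraries at 2 hr held some. This limit rests mostly on 1 hr replicate 1, with 1683383 of the 1958506 counts of its group. In the other libraries at 1 hr, 3 counts equal 46.7 and 12.9 CPM, above the 3.47 and 6.04 CPM at 2 hr. The 45 reads at 2 hr were at least 8.51-fold more than at 1 hr, taking those reads as counted, and replicate 2 held 35 of them. Without it the bound was 2.86-fold. Controls held 1 read, and the ratios of 24.3 at 2 hr and 15.6 at 4 hr have 95% counting intervals of 4.14 to 979 and 2.60 to 638. Without the 2 libraries that stood apart, 10 reads remained at each time, with ratios of 8.13 (1.16 to 353) and 10.4 (1.48 to 452). In male-labelled libraries sr lay at 1.82, 16.8 and 0 CPM in controls, at 8.20, 6.84 and 8.82 CPM at 1 hr, at 0, 8.01 and 2.57 CPM at 2 hr and at 5.85, 0 and 1.78 CPM at 4 hr. These groups overlapped with the controls at every time, and without the filter edgeR gave adjusted p values between 0.773 and 1.0 for sr in both labels.

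Several of the 8 genes varied together with the make-up of the libraries. The 7 libraries with the lowest summed level of neuronal markers, from 381 to 2689 CPM, held the 6 highest Jra levels, 22.7 to 153 CPM, and 14.4 CPM in male-labelled 2 hr replicate 2. In the other 17 libraries Jra lay at or below 15.6 CPM. Across the 24 libraries the correlation of Jra with the neuronal sum, both on a log2 scale, was −0.709 (Spearman −0.779), −0.722 without the 2 libraries that stood apart, and it was negative within both labels (Spearman −0.979 over 12 female-labelled and −0.373 over 12 male-labelled libraries). Hr38 went the other way, with 0.828 for the neuronal sum (Spearman 0.568) and 0.866 for the sum of 7 glial markers (Spearman 0.811), and 0.654 and 0.702 without those 2 libraries. The points share depth, scaling and the fact that a larger share of 1 RNA lowers that of others, so these values are descriptions.

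**Figure D4:**
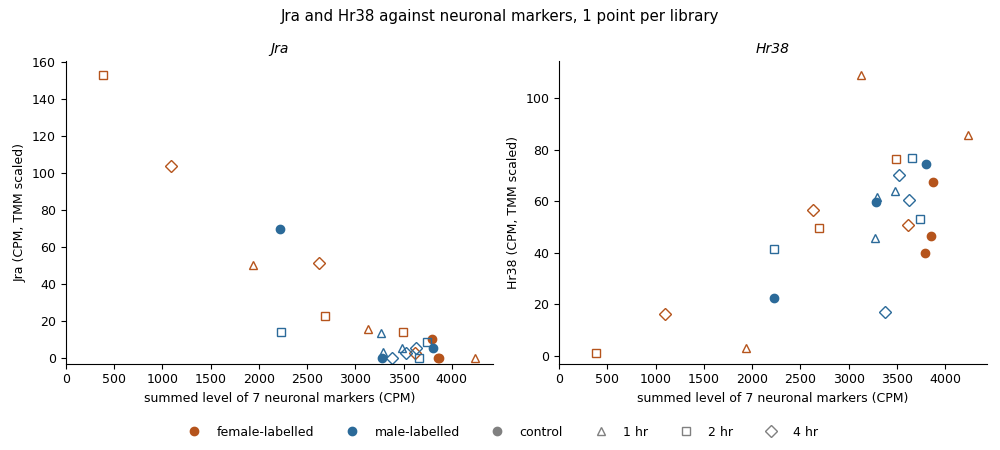
Level of Jra (left) and Hr38 (right) in CPM (vertical axes) against the summed level of 7 neuronal markers in CPM (horizontal axes), with 1 point for each of 24 libraries, coloured by sex label and shaped by time after injury. Jra is highest, at 153 and 104 CPM, and Hr38 low, at 1.03 and 16.2 CPM, in the 2 libraries with the least neuronal RNA, at 381 and 1094 CPM.

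The neuronal sum itself spread more widely in the injured female-labelled groups than in their controls. It ran from 3791 to 3870 CPM in controls, 1936 to 4236 CPM at 1 hr, 381 to 3493 CPM at 2 hr and 1094 to 3619 CPM at 4 hr. The fat body sum, of genes for yolk and storage proteins among others, was 39010 CPM in female-labelled 1 hr replicate 1. It was 37890 CPM in female-labelled 2 hr replicate 2 and 4417 to 12540 CPM elsewhere, with Fbp1 at 0 in all libraries. Mean levels of the yolk gene Yp1 were 2053, 8852 and 8222 CPM in female-labelled control, 1 hr and 2 hr libraries. Those of the yolk gene Yp2 were 466, 3707 and 3252 CPM in the same order. Lsp2 had means of 1171, 1252 and 815 CPM, and apolpp of 3403, 3279 and 2191 CPM. The high sums thus do not stand for every gene of the list. The muscle sum lay between 941 and 4874 CPM, and its correlation with Jra was −0.152 over all 24 libraries and 0.774 without the 2 that stood apart. The sums ran from 935 to 2305 CPM for glia, from 1015 to 7189 CPM for photoreceptors and from 37.2 to 238 CPM for hemocytes. The part of these RNAs in the levels of the 8 genes was not tested. In RNA from whole brains, fewer cells of a type and less RNA per cell cannot be told apart.

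A further limit touches Jra. In the BDGP6 annotation its gene overlaps RpLP0-like on the opposite strand, and no source used here states whether the counting used strand. RpLP0-like had 126 reads in female-labelled 2 hr replicate 2, where Jra had 148, and 34 reads in 1 hr replicate 1, where Jra had 67. It had 3 reads in 4 hr replicate 2, against 154 of Jra, and none in male-labelled control replicate 2, against 25. Jra was thus high in libraries with many and with few reads of its neighbour. puc, kay and Hr38 overlap noncoding or other genes with at most 46 reads over all libraries.

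Among themselves the 8 genes did not vary as a block. Over 24 libraries the log2 levels of Jra and hep had a correlation of 0.624, and those of Jra with puc and with its partner kay −0.368 and −0.365. Hr38 had −0.624 with Jra and 0.425 with kay. Without the 2 libraries that stood apart these 5 values were 0.462, −0.42, −0.0489, −0.404 and 0.15. The genes most like Jra among 5462 were those for the small ribosomal subunit proteins RpS16, RpS26 and RpS2 (0.918, 0.918 and 0.917). Those most like puc were Cka (0.824), a scaffold of the JNK pathway in the fly, CG2790 (0.815) and Myc (0.805), and those most like kay were CG9934 (0.813), CG44245 (0.807) and scny (0.800). The values for hep were 0.860 with e, 0.816 with fry and 0.800 with eIF2B-alpha. Hr38 was most like CG42402 (0.895), CG13409 (0.892) and CG9395 (0.876). For these 15 genes the values without the 2 libraries that stood apart lay between 0.543 (puc with Myc) and 0.876 (Jra with RpS16).

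The rest of the pathway gave no called gene either. Of 21 other genes of JNK signalling, 16 could be tested in female-labelled libraries, and their median log2 fold change was −0.29, −0.05 and −0.30 at 1, 2 and 4 hr, beside 0.05, 0.00 and 0.04 for all genes tested. Among the abundant genes of the list were the kinases wnd (mean 82.7 CPM) and msn (82.3 CPM), and raw (80.2 CPM), a repressor of the pathway in fly embryos. At an unadjusted p under 0.05 with a log2 fold change beyond 1, Tab2, the adaptor that binds the kinase Tak1, stood alone in the list at 1 hr and at 2 hr in this label. Of all genes tested there, 1.66% and 7.13% passed that limit. Tab2 is named because of its values, as are Mekk1 and Aplip1 below. Tab2 lay at 7.95, 0 and 0 CPM in controls and between 13.3 and 35.1 CPM in all 9 injured female-labelled libraries. These controls held 2, 0 and 0 reads, and the 15.6 CPM of 1 hr replicate 2 was 1 read. Of all genes tested, 6.89%, 14.7% and 11.8% did not overlap with control at 1, 2 and 4 hr. In male-labelled controls Tab2 lay at 10.9, 39.2 and 11.97 CPM, and the injured male-labelled libraries, at 0 to 30.45 CPM, overlapped with them. It also passed the unadjusted limit between the controls of the labels (1.96% of genes), with the female-labelled ones lower. The same held for injury at any time (3.13%) and for the sex-label difference at 1, 2 and 4 hr (1.72%, 5.44% and 6.35%). Mekk1, another gene of the list, passed the limit in the direction opposite to Tab2 between the controls and for the sex-label difference at 2 and 4 hr. In male-labelled flies the one gene of this list past that limit against control was Aplip1, the fly JIP1 scaffold of the JNK kinases, at 2 hr. It lay at 22.1, 50.5 and 25.7 CPM against 14.6, 19.6 and 0 CPM in controls (8, 7 and 0 reads). These groups did not overlap, as for 4.22% of genes tested. Aplip1 was not particular to this label. Female-labelled controls lay at 31.8, 16.3 and 15.5 CPM, below all libraries at 2 hr (34.7, 126 and 43.05 CPM) and 4 hr (45.1, 75.0 and 67.2 CPM). These controls held 8, 20 and 1 reads, and in shallow replicate 3, 3 counts equal 46.4 CPM. That is above the 34.7 and 43.05 CPM at 2 hr and the 45.1 CPM at 4 hr. Of all genes tested, 14.7% and 11.8% did not overlap at these times. In the female label Aplip1 passed the unadjusted limit for 2 hr against 1 hr, not against control. Over both labels it passed that limit for injury at any time against control, as did 3.13% of genes.

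Genes known as targets of JNK and AP-1 in the fly were mostly too sparse to test. Of 12, 5 could be tested in female-labelled libraries, with median log2 fold changes of 0.01, −0.16 and −0.11, and Ilp8 had no read at all. The most abundant were Xrp1 (mean 245 CPM), the cell death gene hid (71.0 CPM), Atf3 (30.9 CPM) and the matrix metalloproteinase Mmp1 (22.8 CPM). Ets21C, an ETS factor induced by JNK signalling, was the only one past the unadjusted limit against control, at 2 hr in female-labelled libraries, and is named for that. Of all genes tested there, 7.13% passed that limit. Ets21C lay at 5.21, 140 and 13.6 CPM at 2 hr against 7.95, 0 and 0 CPM in controls, so that replicate 2 again held most of the signal.

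Of 13 genes of activity and calcium signalling, 12 could be tested in female-labelled libraries, with median log2 fold changes of −0.21, −0.60 and −0.38 at 1, 2 and 4 hr. The most abundant were calmodulin, Cam (mean 1321 CPM), the calcineurin subunits CanA-14F (427 CPM) and Pp2B-14D (165 CPM), and the CREB-binding protein nej (160 CPM). The summed level of the list was 621 and 1201 CPM in the 2 libraries that stood apart and 2149 CPM or more in every other library, alongside the neuronal sum. CG14186, an activity-regulated gene of the fly brain, was the single one past the unadjusted limit against control at 2 hr in this label, with 22.6, 51.7 and 29.5 CPM against 7.95, 0.814 and 0 CPM in controls. It is named for its values, and all 3 of its injured libraries lay above its 3 controls. Of all genes tested there, 14.7% did not overlap with control and 7.13% passed the unadjusted limit. The controls of CG14186 held 2, 1 and 0 reads. In control replicate 3, a shallow library, 3 counts equal 46.4 CPM, above the 22.6 and 29.5 CPM at 2 hr.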

How the data were processed

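The authors dissected single brains, made QuantSeq 3′ FWD libraries and, per the labels and the paper's methods, used CASAVA 1.8.2, STAR 2.4 (build dm3) and HTSeq. The deposited table holds the authors' raw read counts of 16995 genes in 24 libraries, unscaled. For HTSeq, the version, the annotation and the use of strand were not given in the sources used here. Of the deposited files, 6 comparison tables hold the authors' fold changes and p-values from edgeR 3.22.3 and were not used.

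Counts were tested with edgeR 4.0.16 (R 4.3.3) by the quasi-likelihood F test, with TMM scaling, filterByExpr, group means and no replicate block, on the 12 libraries of a sex label (5918 genes female-labelled, 4474 male-labelled) or on all 24 (5462 genes) for contrasts across labels. A gene was called at a Benjamini-Hochberg adjusted p under 0.05 with |log2FC| over 1. The standard error is the log2 fold change over the root of F. Pooled ratios carry exact 95% counting intervals, with a floor of 3 reads for a group without reads. Such intervals and floors cover counting error only. The script was tested on simulated data with a smaller spread between libraries than the real data had. That test does not show what could be recovered at the real spread. Correlations used log2 CPM with a prior count of 2, or CPM plus 1 for marker sums.

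The members, lists and tests were chosen with earlier results of these data known. All 8 members are named. The 4 most abundant genes of each list and the 3 genes most like each tested member complete the naming rule, exceptions are marked, and 1 gene the rule names is not reported here. Alternatives were other filters, RLE and library size scaling, DESeq2 1.42.0, limma-voom (limma 3.58.1) with sample weights, a replicate block, other sets of libraries and each library left out. Pooled ratios and correlations without the 2 libraries that stood apart were added after seeing the data. The labels give replicate numbers no meaning, and p-values measure the spread between single brains. Deviations of same-numbered libraries correlated (over 0.1 in all 3 pairs) for male-labelled control and 1 hr (0.106 to 0.341) and control and 2 hr (0.164 to 0.532). So did those of male-labelled 1 and 2 hr (0.15 to 0.409) and female-labelled 2 and 4 hr (0.128 to 0.605), and of no other groups of a label. In the male-labelled pairings with control, only replicate 2 was closest to the library of its own number. Gene positions in BDGP6 were used for neighbours only, since its build differs from dm3. Summaries used Python 3.11.15, numpy 2.4.6, scipy 1.17.1 and pandas 2.3.3.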

Additional observations from a re-analysis of the deposited data

Results flagged for a closer look

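The 8 genes were each set against control at every time after injury. In 6 of these cases all injured libraries of a time lay on one side of the mean of their controls in one sex label. In the other label they lay on the other side. The share of all genes that did so was not computed, so the 6 cases cannot be called particular to these genes. In each of the 6, leaving out 1 control library turned the sign of the mean difference in one label, a check chosen after seeing the data. At 2 hr the mean level of Jra was 59.63 CPM higher than in controls in female-labelled libraries and differed by −17.39 CPM in male-labelled ones. The test of this difference is the sex-label contrast, with edgeR adjusted p = 0.829. Without control replicate 2 the male-labelled difference was 5.032 CPM. At 4 hr hep differed by 15.78 and −3.458 CPM, and its contrast had adjusted p = 0.804. Without the same control the male-labelled difference was 5.467 CPM.

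The other 4 cases concern genes below the filter on low counts in the fit of all 24 libraries, and their differences between labels were not tested. bsk differed by −4.322 CPM at 1 hr in female-labelled libraries and by 2.712 CPM in male-labelled ones, and the female-labelled value was 2.88 CPM without control replicate 2, which held 29 of the 30 control reads. sr differed by −1.324 and 1.748 CPM at 1 hr, where the male-labelled value was −0.446 CPM without control replicate 1 and −1.356 CPM without control replicate 3. sr differed by 10.64 and −3.664 CPM and egr by 8.032 and −3.14 CPM at 4 hr, and without control replicate 2 the male-labelled values were 1.633 and 0.593 CPM. Control levels rest on 1 to 30 reads per group for these 3 genes.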

How the results depend on the processing

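None of the 8 genes was called under any of the 266 repeated counts, and none of 569 alternative log2 fold changes passed the threshold, while 48 had the other sign, in 17 of 34 results. With no filter on low counts, the female-labelled 2 hr comparison gave 95 called genes in edgeR, none of them among the 8. Leaving out 1 library moved the log2 fold change of Jra from −0.397 to 7.138 at 1 hr in female-labelled libraries and from −7.079 to 0.479 between controls. For puc the ranges were −0.401 to 0.095, −0.605 to 0.476 (female-labelled, 1 and 4 hr) and −0.136 to 0.912 (male-labelled, 2 hr). For kay they were −0.367 to 0.397, −0.373 to 0.194 and −0.448 to 0.128 (female-labelled, 1, 2 and 4 hr), −0.068 to 0.218 and −0.1 to 0.317 (male-labelled, 2 and 4 hr) and −0.007 to 0.174 (any injury). For Hr38 they were −0.265 to 0.899, −0.949 to 0.299 and −0.658 to 0.062 (female-labelled, 1, 2 and 4 hr) and −0.282 to 0.681, −0.284 to 0.668 and −0.281 to 0.676 (male-labelled, 1, 2 and 4 hr). Signs also changed without the 2 libraries that stood apart, for puc at 4 hr (0.505), kay at 2 and 4 hr (0.192 and 0.14) and Hr38 at 2 and 4 hr (0.3 and 0.088). Without the libraries under 100000 counts they changed for puc at 1 and 4 hr (0.208 and 0.115), Hr38 at 1 hr (−0.33) and male-labelled kay at 2 hr (−0.047). limma-voom changed them for female-labelled puc at 4 hr (0.084), kay (−0.366) and Hr38 (−0.027) at 1 hr, for male-labelled kay at 2 hr (−0.134) and Hr38 at all times (−0.212, −0.071 and −0.151), and for kay after any injury (−0.072). Library size alone changed kay at 1 hr in female-labelled libraries (−0.088) and after any injury (−0.045). The replicate block changed no call and turned kay to −0.141 at 1 hr in female-labelled and to −0.016 at 2 hr in male-labelled libraries. With the block Jra at 2 hr in female-labelled libraries was 3.632 (adjusted p = 0.75). The cause of these changes was not tested. bsk could not be fitted without 2 hr replicate 2, where it failed the filter, and egr and sr only without a filter. Scaling by library size alone moved none of 64 group levels by more than 1 SD. Where the SD exceeds the mean this check could hardly fail, as for Jra (63.2 ± 77.9 CPM) and bsk (45.5 ± 62.7 CPM) in female-labelled libraries at 2 hr.

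With 3 libraries per group and a biological coefficient of variation of 0.798 in female-labelled and 0.386 in male-labelled libraries, a p above the threshold does not show that a level stayed the same.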
